A study of Sorghum bicolor with 64 samples.

Results

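The genes encoding the proteins of the cytosolic ribosome were followed in stems and leaves of sorghum after head removal. A gene was a member if its deposited description named a 40S or 60S ribosomal protein, a eukaryotic-type protein of the small or large subunit, or an acidic stalk protein, and did not name a kinase, a mitochondrion or a chloroplast. This gave 209 members among the 18832 genes of the stem and leaf tables, of which 206 were in the stem table of 16942 genes, 208 in the leaf table of 16386 genes and 205 in both. A gene is in a table if it exceeded 3 TPM in at least 2 samples, so ribosomal protein genes below that level are not covered.

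The plants were field-grown near-isogenic lines of the D locus, DD and dd, the latter carrying a truncated allele of the transcription factor gene SbNAC074A. In each line the head was cut off at anthesis or left on (control), and samples were taken 3 or 10 d later from the inner part of the fourth internode from the top, with the outer layer shaved off, and from the middle of the second leaf below the flag leaf. The 2 genotypes, 2 treatments and 2 days make 8 groups per organ, with 3 to 4 stem samples each (29 in all) and 3 leaf samples each (24 in all). The labels call the replicates biological ones, and the p-values below measure the spread between these samples. Libraries were made from mRNA, and each value is a TPM, the share of a transcript among all transcripts after correction for its length, scaled to a fixed total. Stem and leaf tables were fitted separately, and levels set side by side between them are a description.

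Ribosomal proteins of the cytosol are encoded in the nucleus, made in the cytosol and joined to ribosomal RNA in the nucleolus into a small (40S) and a large (60S) subunit. Plants carry several gene copies of nearly every ribosomal protein, and their transcripts are typically abundant where cells grow or build new proteins. The P0, P1 and P2 proteins form the stalk of the 60S subunit, which recruits the translation factors that drive elongation.

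In stems the members comprised 83 genes of 40S proteins, 114 of 60S proteins, 8 of stalk proteins and 1 outside these classes, and in leaves 84, 115, 8 and 1. They fell into 78 protein families, 73 of which had 2 or more genes. The largest families, RPL11 and RPL34 among them, had 7 genes, whereas 5 families, such as RPL9, RPL26 and RPS16, had 1 gene. The label was checked against the descriptions: 175 stem and 176 leaf members carry a KEGG description of a ribosomal protein, and the others another description, mostly of a protein family. For a pair of members the description names another role as well. Sobic.002G389900 is described as SNU13 (15.5 kD), a protein of small nuclear and nucleolar RNA particles involved in splicing, and Sobic.009G232000 as an RLP24-related protein, which in yeast takes the place of RPL24 during 60S assembly. Copies of 1 family have similar sequences and can share reads, so the split of reads between copies is uncertain where the counting could not tell them apart.

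The members were among the most abundant transcripts, and more abundant in stems than in leaves. Their median level was 239 TPM in stems and 116 TPM in leaves, against 20.0 and 18.2 TPM for all genes. Summed over members they made up 4.58 to 7.74% of the TPM of a stem sample and 1.88 to 4.81% of that of a leaf sample. Of the 205 members in both tables, 194 (94.6%) had the higher mean in stems, with a median stem to leaf ratio of 2.04, whereas 65.0% of all 14496 genes in both tables did, with a median ratio of 1.30.

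**Figure D1:**
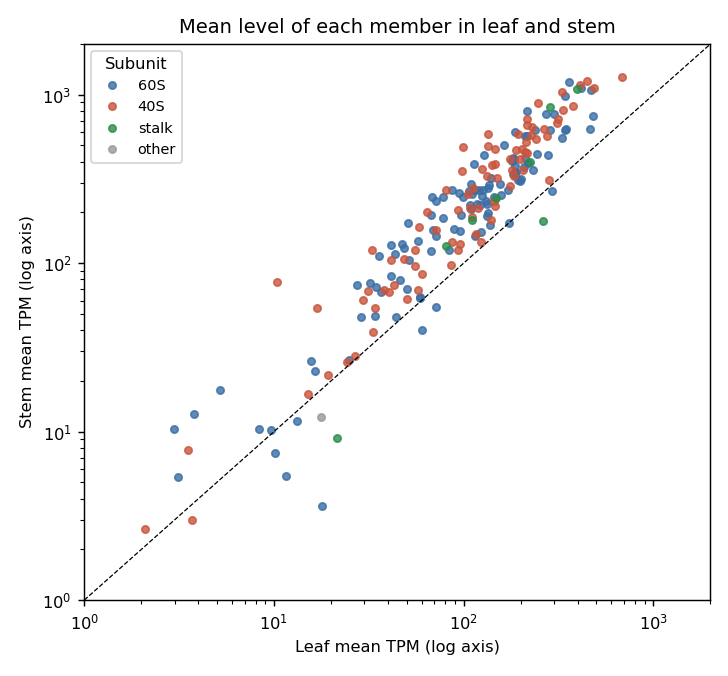
Mean TPM of each of the 205 members in both tables, in leaf (horizontal, log axis) and stem (vertical, log axis), coloured by subunit; the dashed line marks equal values. Most points, 194 of 205, lie above the line.

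The 3 most abundant members in stems were RPS21 (Sobic.001G374700, 1277 ± 183 TPM, SD over samples, n = 29), RPS28 (Sobic.001G402050, 1208 TPM) and RPL34 (Sobic.007G045700, 1186 TPM), and the SD of each over samples is larger than the gaps between these means. In leaves the same RPS21 gene had the highest mean (682 ± 241 TPM, n = 24), and RPL44 (Sobic.001G018800, 482 TPM), RPL36 (Sobic.009G163800, 468 TPM) and RPL23 (Sobic.004G342400, 464 TPM) were among the next, closer to each other than the SD of any of them. RPS21 and RPS28 are parts of the 40S subunit and the others of the 60S subunit.

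Within families 1 copy usually led, with a median of 61.7% of the family's TPM in stems and 60.1% in leaves, and it held over 90% in 7 families in stems and 4 in leaves. In 10 of the 73 families a different copy led in each organ. RPS23, a protein of the decoding centre, was led by Sobic.001G036900 in stems (491 TPM) and by Sobic.009G166500 in leaves (185 TPM). RPS6, the 40S protein that S6 kinase phosphorylates downstream of TOR, was led by Sobic.002G379500 in stems (583 TPM) and by Sobic.008G098800 in leaves (202 TPM). The other families were RPL6, RPL7, RPL14, RPL15, RPL37, RPLP2, RPS27 and RPS29. The highest stem to leaf ratios of mean TPM were 7.43 for RPS2 Sobic.002G074200, 4.95 for RPS23 Sobic.001G036900 and 4.36 for RPS6 Sobic.002G379500. The lowest were 0.20 for RPL23A Sobic.010G052866, 0.42 for RPLP0 Sobic.009G229400 and 0.47 for RPL10 Sobic.001G383000, each a minor copy with 0.42, 0.83 and 2.38% of its family's TPM in stems.

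The summed level of the members was higher after head removal than in controls in each matched pair of stem groups, but without overlap in 1 pair. In DD stems at 10 d the control samples stood at 57746, 45517 and 57411 TPM and the samples with the head removed at 67025, 74003 and 60069 TPM, so the groups did not overlap and their means differed 1.25-fold. In the other 3 pairs the groups overlapped, and the mean after head removal over that of controls was 1.06 in DD at 3 d, 1.10 in dd at 3 d and 1.13 in dd at 10 d. From 3 to 10 d the mean changed 0.86-fold in DD controls, 0.85-fold in dd controls and 0.88-fold in dd plants without heads, but 1.02-fold in DD plants without heads, with overlapping samples in each case. The lowest mean was that of DD controls at 10 d (53558 ± 6966 TPM, SD, n = 3) and the highest that of dd plants 3 d after head removal (72919 ± 3800 TPM, n = 3). Since these are bulk samples, fewer cells of a type and less RNA per cell cannot be told apart.

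In leaves the summed level was highest in dd plants 10 d after head removal, at 35222, 46231 and 47827 TPM, and lowest in DD controls at 3 d, at 18716, 20484 and 21952 TPM. It was higher at 10 d than at 3 d without overlap in DD controls (1.31-fold), in DD plants without heads (1.28-fold) and in dd plants without heads (1.46-fold). In dd controls the groups overlapped: the 3 d samples stood at 20258, 22302 and 38659 TPM and the 10 d samples at 33475, 29232 and 37221 TPM. Replicate 4 of the dd controls at 3 d, the sample at 38659 TPM, stands apart from the other two, and results in leaves are therefore also given without it. At 10 d the dd leaves were above the DD leaves without overlap in controls (1.24-fold) and after head removal (1.48-fold). At 3 d the genotypes overlapped in both treatments, with dd to DD ratios of the means of 1.33 in controls and 1.30 after head removal. The ratio in controls includes replicate 4 of dd. The other dd controls at 3 d, at 20258 and 22302 TPM, stood close to the DD controls, at 18716 to 21952 TPM. These sums are given without a test.

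**Figure D2:**
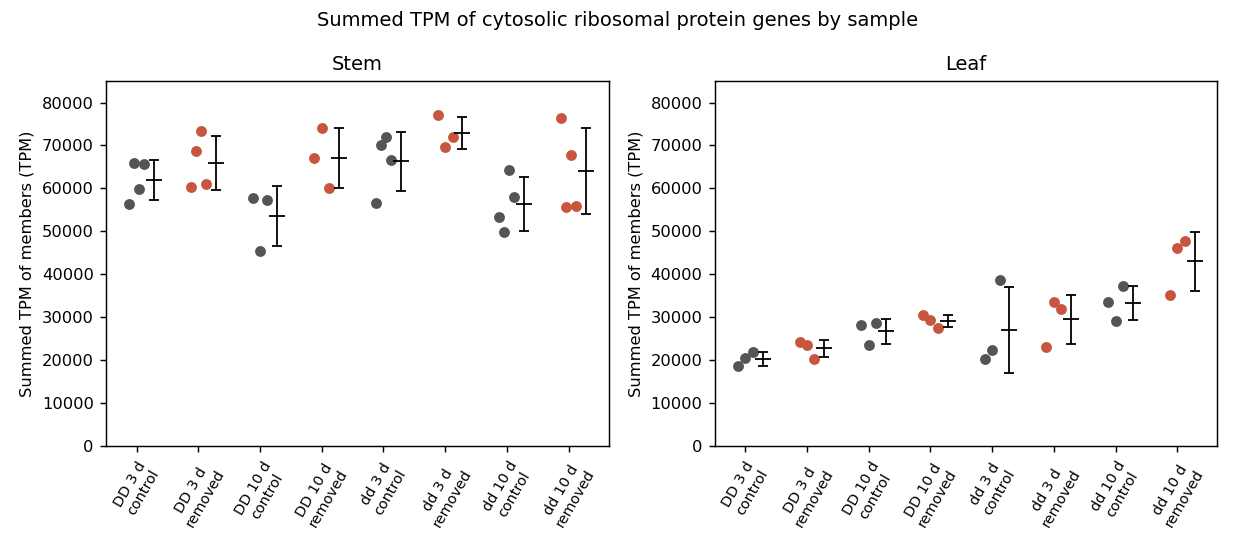
Summed TPM of all members in each sample (points) by genotype, day and treatment in stem (left, 206 members) and leaf (right, 208 members), with the mean and SD of each group in black. Head removal samples (red) lie above controls (grey) without overlap in DD stems at 10 d, and the leaf group means are higher at 10 d than at 3 d.

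Members moved together across samples. The correlation of a member with the sum of the others, on a log2 scale, had a median of 0.78 over 29 stem samples and 0.95 over 24 leaf samples, and exceeded 0.8 for 94 of 206 and 176 of 208 members. It was below 0 for 10 members in each organ. The samples share their groups and the scaling of TPM to a fixed total, and the correlations are given as a description.

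For tests, log2(TPM + 1) was modelled in limma as a sum of effects of head removal, genotype and day, and a gene was called if its p-value, adjusted by Benjamini-Hochberg over all genes of the organ, was under 0.01. Fold changes are on this log2 scale, which understates changes of genes with low TPM.

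After head removal 69 of 206 members (33.5%) rose in stems and 7 fell, against 14.4% of all genes called higher and 23.5% called lower. The change was small for most: the median was +0.15 on the log2 scale (quartiles +0.06 and +0.24) against -0.06 for all genes, and 181 members had a value above 0. Among those that passed, 1 member changed by 1 log2 unit or more. Of the 83 members of the 40S subunit 23 rose and 2 fell (median +0.15), of the 114 of the 60S subunit 42 rose and 5 fell (median +0.15), and of the 8 stalk members 4 rose (median +0.23). Members over 100 TPM, at 55 higher and 1 lower of 155, had a median of +0.17, against -0.02 for other genes over 100 TPM.

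**Figure D3:**
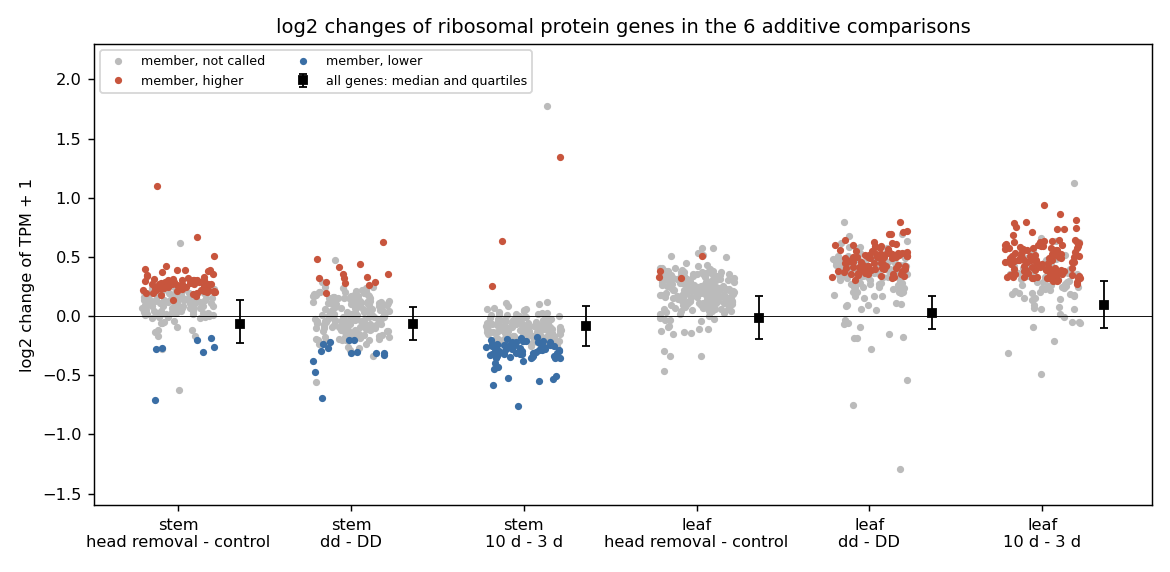
log2 change of TPM + 1 of each member (points) for head removal, genotype and day in stem and leaf; red and blue points passed an adjusted p under 0.01, and black squares with bars give the median and quartiles of all genes. Most members lie above the all-gene median after head removal in stem and in all 3 leaf comparisons, and below 0 for day in stem.

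The highest change belonged to RPL10 Sobic.001G383000, a minor copy of a protein that joins the 60S subunit late in its assembly. It ranged from 0.81 to 4.87 TPM (median 2.57, n = 15) in control stems and from 1.59 to 30.1 TPM (median 4.93, n = 14) after head removal. The ranges overlap, and the highest values, 30.1 and 19.3 TPM, were those of dd replicates 2 and 4 at 10 d. The fitted change was +1.10 ± 0.21 (SE; adjusted p = 0.00011, limma). RPLP0 Sobic.009G229400, a minor copy of the stalk base, went from 2.83 to 9.72 TPM (median 6.40) in controls to 4.95 to 22.2 TPM (median 11.1), a change of +0.67 ± 0.15 (adjusted p = 0.00063, limma). RPS9 Sobic.002G385100, a 40S protein near the mRNA entry site, stood at 31.1 to 58.2 TPM (median 45.1) in controls and at 47.9 to 96.7 TPM (median 60.7) after head removal. Its change was +0.51 ± 0.09 (adjusted p = 7.7e-05, limma). The RLP24-related Sobic.009G232000, a factor of 60S assembly by its description, rose by +0.42 ± 0.09 (adjusted p = 0.00047, limma).

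Of the 7 members that fell, 1 had a mean over 100 TPM (RPL34 Sobic.002G200700, 120 TPM). RPL34 Sobic.003G086700 stood at 6.42 to 25.2 TPM (median 12.3) in control stems and at 3.27 to 19.1 TPM (median 6.13) after head removal, a change of -0.71 ± 0.16 (adjusted p = 0.00075, limma). RPS2 Sobic.002G074200, a copy of a 40S protein at the mRNA entry channel, had 73.6 to 93.8 TPM (median 83.7) in controls and 54.8 to 85.4 TPM (median 72.1) after head removal, and fell by 0.27 ± 0.05 (adjusted p = 0.00021, limma). In both cases the ranges overlapped. RPS3A Sobic.001G431400 fell by 0.26.

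In RPL34, a 60S protein, copies passed in opposite directions. Of the 7 RPL34 genes, Sobic.003G086700 (-0.71), Sobic.009G127300 (-0.30), Sobic.002G200700 (-0.28) and Sobic.003G333900 (-0.19) fell, whereas Sobic.007G045700 (+0.37) and Sobic.002G200600 (+0.22) rose. The rising copies had mean levels of 1186 and 246 TPM, and the falling ones 10.4, 7.46, 120 and 11.6 TPM. In stems the falling copies, in the same order, correlated with the sum of the other members at -0.29, -0.37, -0.51 and -0.33. The rising copies stood at 0.83 and 0.72, and the remaining RPL34 gene, Sobic.007G138700, at 0.84. Such copies thus ran against most members across samples, and the reason was not tested. Sobic.003G333900 did not pass in 15 of the 29 fits that each left out 1 library.

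Among the stalk genes, RPLP0 Sobic.009G229400, RPLP1 Sobic.007G018300 (+0.22 ± 0.07, adjusted p = 0.0079, limma), RPLP2 Sobic.006G067800 (+0.28) and RPLP2 Sobic.009G155600 (+0.24) rose in stems after head removal. The call for RPLP1 Sobic.007G018300 was lost in 16 of the 29 fits without 1 library. The more abundant RPLP0 gene, Sobic.007G029400, at a mean of 1083 TPM, had a value of +0.24 ± 0.08 and missed the threshold (adjusted p = 0.012, limma). The remaining 3, Sobic.006G260400, Sobic.009G242300 and Sobic.010G251600, had values of +0.10, +0.21 and +0.09.

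Within each genotype and day few members passed. In DD stems 0 of 206 members passed at 3 d (6 had an unadjusted p under 0.05 in limma, and 0.761% of all genes were called higher and 0.714% lower), and 5 rose at 10 d (3.55% higher and 7.69% lower). The count at 10 d was 0 to 10 without 1 library, and 0 without control replicate 2 or head removal replicate 1 or 2. The 5 were RPL14 Sobic.006G147000 (+0.63), RPL21 Sobic.001G508900 (+0.62), RPS21 Sobic.001G130301 (+0.61), RPL37A Sobic.004G045400 (+0.45) and RPL9 Sobic.010G005300 (+0.42). Medians were +0.09 and +0.30. In dd stems 1 member rose at 3 d (4.66% of all genes higher and 5.91% lower), and at 10 d 4 rose and 2 fell (6.63% higher and 7.87% lower), with medians of +0.08 and +0.17. The 4 that rose were RPLP0 Sobic.009G229400 (+1.04), RPS9 Sobic.002G385100 (+0.70), RPL17 Sobic.001G016500 (+0.59) and RPL37A Sobic.004G045400, and those that fell were RPS2 Sobic.002G074200 (-0.40) and Sobic.002G389900 (-0.43). Without dd control replicate 1 at 10 d 1 member passed, and without replicate 3 of that group 11 did. RPL37A Sobic.004G045400 rose at 10 d in both genotypes (+0.45 in each).

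The effect of head removal in stems had the higher value at 10 d for 185 of 206 members (median difference +0.13), against 46.1% of all genes (median -0.02). The members moved together, so these are not independent values. However, 0 members passed the test of treatment by day (14 had an unadjusted p under 0.05 in limma, and 0.0118% of all genes were called higher and 0.0354% lower). Likewise 0 passed for treatment by genotype (4 unadjusted, 0% of all genes) and for genotype by day (4 unadjusted, 0.0059% of all genes lower).

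Light-reaction genes, which mark green cells, moved with head removal in stems: 44 of 68 rose and 2 fell, and their summed level was 3765 to 12648 TPM (median 7427) in controls and 6705 to 15429 TPM (median 11837) after head removal. Summed over their list they stood at 40742 to 87629 TPM in leaves, against 3765 to 15429 TPM in stems. Of 50 heat shock genes 11 rose and 3 fell in stems after head removal, of 43 core histones, which mark dividing cells, 7 rose and 4 fell, and of 13 lignin enzymes 1 rose and 3 fell. Of all genes 14.4% were called higher and 23.5% lower, and the histone and lignin counts were near or below these shares. The part of the marker lists in the rise of the members was not tested.

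In stems most members had lower fitted levels at 10 d than at 3 d. There 69 of 206 (33.5%) fell and 3 rose, against 23.7% of all genes lower and 8.84% higher, with a median of -0.17 (quartiles -0.25 and -0.08) against -0.09 for all genes, and 183 members had a value below 0. With median-of-ratios scaling of the TPM values, 18 members fell and 6 rose, so that the share of higher calls among all calls went from 4.17 to 25%. The median was then -0.08, with that of all genes near 0. The share of all genes called under this scaling was not counted, so whether the members still exceeded it is not known. By subunit, 26 of 83 members of the 40S and 40 of 114 of the 60S subunit fell, with medians of -0.18 and -0.17.

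The 4 lowest changes were in copies of low to moderate level. RPS3A Sobic.001G431400, a copy of a 40S protein near the mRNA exit, went from 16.8 to 33.4 TPM (median 25.7, n = 15) at 3 d to 9.55 to 23.4 TPM (median 17.1, n = 14) at 10 d, a change of -0.55 ± 0.08 (adjusted p = 2.2e-06, limma). RPL35A Sobic.009G225900 went from 8.69 to 16.9 TPM (median 12.5) to 4.04 to 10.3 TPM (median 8.01), a change of -0.59 ± 0.08 (adjusted p = 4.0e-06, limma). The ranges at both days overlapped for each of these genes. RPL27A Sobic.004G055100, a 60S protein, went from 37.1 to 72.8 TPM (median 58.0) to 25.03 to 51.4 TPM (median 37.2), a change of -0.54 ± 0.08. RPL34 Sobic.003G086700 fell by 0.76 ± 0.16.

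In 3 families copies passed in opposite directions with time. In RPLP0 the leading copy, Sobic.007G029400, stood at 844 to 1488 TPM (median 1182) at 3 d and at 685 to 1265 TPM (median 916) at 10 d, a change of -0.36 ± 0.08 (adjusted p = 0.00065, limma). The minor copy, Sobic.009G229400, stood at 2.83 to 13.9 TPM (median 6.40) at 3 d and at 5.88 to 22.2 TPM (median 9.87) at 10 d, a change of +0.63 ± 0.15 (adjusted p = 0.0014, limma). For RPL10, Sobic.001G177800 (-0.30) and Sobic.004G103700 (-0.18) fell, and Sobic.001G383000 rose by +1.35 ± 0.21, from 0.81 to 6.79 TPM (median 1.59) to 2.57 to 30.1 TPM (median 4.78). For RPLP2, an acidic protein of the stalk tip, Sobic.006G260400 fell by 0.29 and Sobic.009G155600 rose by +0.26. The falls of Sobic.007G029400, Sobic.006G260400 and both RPL10 genes did not pass with median-of-ratios scaling, with values of -0.27, -0.20, -0.21 (Sobic.001G177800) and -0.09 (Sobic.004G103700).

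**Figure D4:**
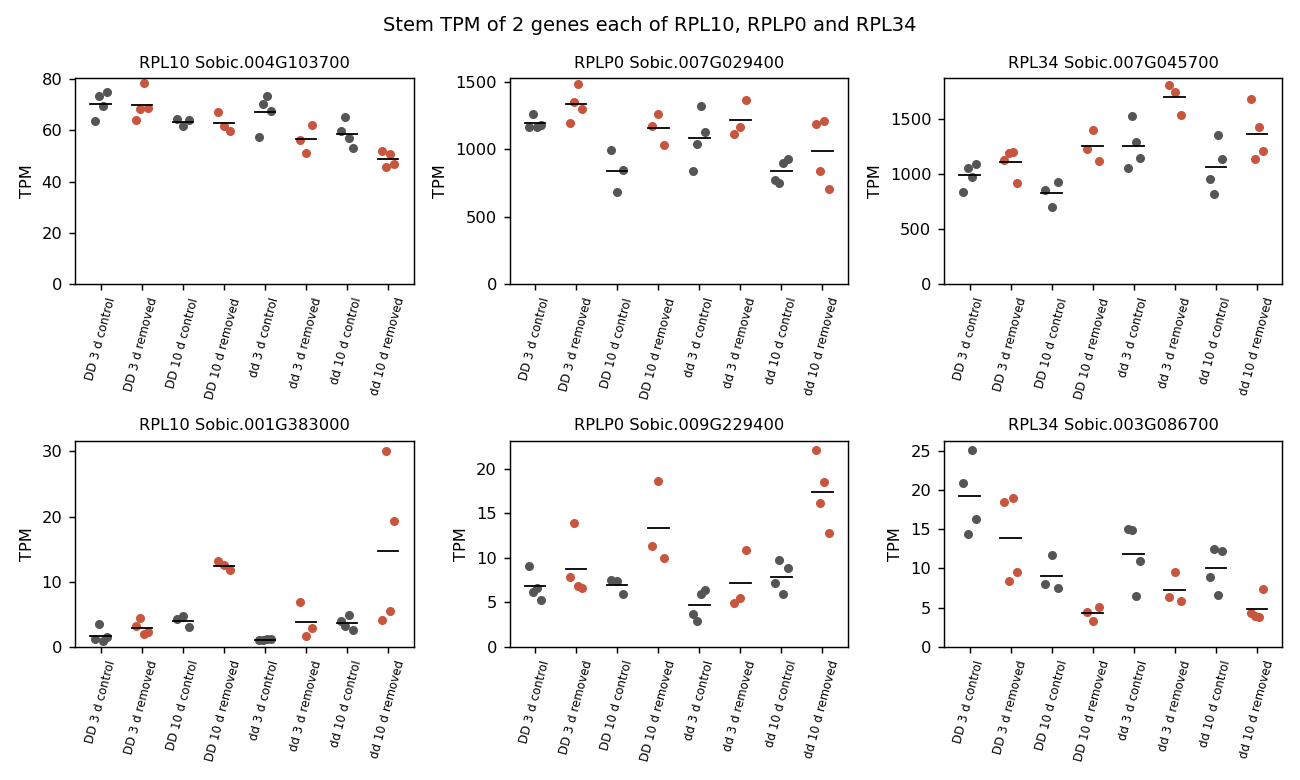
Stem TPM of a more abundant (top) and a minor (bottom) gene of RPL10, RPLP0 and RPL34 in each sample (points) by genotype, day and treatment, with group means (lines); grey is control and red head removal, and the vertical axes differ between panels. The minor RPL10 and RPLP0 genes are highest 10 d after head removal, where the minor RPL34 gene is lowest.

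Of the marker lists, 2 moved with time in stems beyond the share of all genes called (8.84% higher and 23.7% lower). Heat shock genes rose (26 of 50, 1 fell), and their summed level was 6515 to 8810 TPM at 3 d and 8651 to 31458 TPM at 10 d. Light-reaction genes fell (25 of 68, 1 rose), with sums of 6324 to 15429 TPM at 3 d and 3765 to 13676 TPM at 10 d. For core histones (9 of 43 lower) and lignin enzymes (2 of 13 lower) the counts were no higher than the share of all genes. The mean summed level of core histones was 3571 TPM at 3 d and 3460 TPM at 10 d in DD controls, 3031 and 3015 TPM in dd controls, 4720 and 2803 TPM in DD after head removal and 3101 and 2649 TPM in dd after head removal. That of lignin enzymes was lower at 10 d in all 4 pairs of groups, with samples at 555 to 1539 TPM at 3 d and at 326 to 626 TPM at 10 d. Their part in the fall of the members was not tested.

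Between genotypes the stem members split evenly, with 14 of 206 higher in dd and 14 lower (5.17% of all genes higher and 12.7% lower) and a median of -0.00. With median-of-ratios scaling the median was +0.06, with 23 higher and 5 lower, so that the share of higher calls went from 50 to 82.1%. The widest change was that of RPL28 Sobic.003G272500, a 60S protein that budding yeast lacks. It stood at 73.9 to 178 TPM (median 145, n = 14) in DD and at 51.8 to 118 TPM (median 87.2, n = 15) in dd, a change of -0.69 ± 0.12 (adjusted p = 0.00028, limma). RPL30 Sobic.010G259900 stood at 31.1 to 45.7 TPM (median 37.0) in DD and at 38.9 to 89.4 TPM (median 54.7) in dd, a change of +0.63 ± 0.10 (adjusted p = 7.7e-05, limma). Other members higher in dd stems were RPS13 Sobic.007G019000 (+0.49), RPS23 Sobic.001G036900 (+0.44) and RPS6 Sobic.002G379500 (+0.42), and others lower were RPS27 Sobic.001G091701 (-0.47) and RPS3 Sobic.002G371100 (-0.33). RPL34 again split, with Sobic.007G045700 (+0.36) and Sobic.002G200600 (+0.19) higher and Sobic.002G200700 (-0.31) and Sobic.003G333900 (-0.24) lower in dd. Of the 8 stalk genes none passed by the adjusted p in limma. Of the marker lists, 8 of 43 core histones were lower in dd stems, 7 of 50 heat shock genes were higher, 7 of 68 light-reaction genes were higher and 4 lower, and 1 of 13 lignin enzymes was lower, and their part in the members' values was not tested.

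In leaves the members rose from 3 to 10 d. The count was 127 of 208 (61.1%) higher and 0 lower, against 17.8% of all genes higher and 3.69% lower, and 200 members had a value above 0. Their median was +0.41 (quartiles +0.32 and +0.51), against +0.09 for all genes. With median-of-ratios scaling, which moved the median of all genes from +0.09 to -0.01, the members' median was +0.29, and 46 passed, all higher. Among the 40S members 57 of 84 rose, among the 60S members 66 of 115 and among the stalk members 4 of 8. In 28 families every gene passed, and 66 families had at least 1 gene that did. Leaving out replicate 4 of the dd controls at 3 d gave 166 members higher, and the share of all genes called in that fit was not counted.

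RPS27 Sobic.004G145701, a minor copy of a zinc-binding 40S protein, stood at 0.87 to 4.35 TPM (median 1.90, n = 12) at 3 d and at 3.60 to 8.95 TPM (median 4.73, n = 12) at 10 d, a change of +0.94 ± 0.13 (adjusted p = 4.8e-05, limma). RPL23 Sobic.004G342400, which lies at the interface of the subunits, stood at 160 to 648 TPM (median 298) at 3 d and at 340 to 1068 TPM (median 520) at 10 d, a change of +0.79 ± 0.16 (adjusted p = 0.00079, limma). The days overlapped in both genes, and the highest 3 d value of each lay above the lowest 10 d value.

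Among the lowest of the members that passed were RPL13 Sobic.009G237200 (+0.27), RPL18 Sobic.009G050300 (+0.29) and RPL26 Sobic.003G078200 (+0.30). Of the stalk genes, RPLP2 Sobic.006G067800 (+0.81 ± 0.18), Sobic.009G242300 (+0.59) and Sobic.009G155600 (+0.56) and RPLP1 Sobic.010G251600 (+0.54) rose. The RPLP0 genes that hold the stalk did not pass, at +0.06 ± 0.07 for Sobic.007G029400 and -0.05 ± 0.10 for Sobic.009G229400. Among marker lists in leaves, 6 of 47 heat shock genes rose with day and 2 fell, 3 of 70 light-reaction genes rose and 4 fell, 1 of 32 core histones rose, and of 14 lignin enzymes 1 fell. The shares of all genes called were 17.8% higher and 3.69% lower. The light-reaction list had a median of -0.24, and its mean summed level was lower at 10 d in each pair of groups, with overlapping samples. It went from 74979 to 57437 TPM in DD controls and from 66413 to 54229 TPM in dd controls. After head removal it went from 60562 to 51918 TPM in DD and from 61303 to 49783 TPM in dd. The part of these lists in the rise of the members was not tested.

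Of the 205 members in both tables, 180 had a value for day below 0 in stems and above 0 in leaves, and 19 had values above 0 in both. Taking each organ by itself, 63.8% of all genes had a value below 0 in stems and 63.2% a value above 0 in leaves. The share of all genes with both was not counted. The difference between organs was not tested, since the tables were processed separately, and the stem side depends on the scaling as given above.

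**Figure D5:**
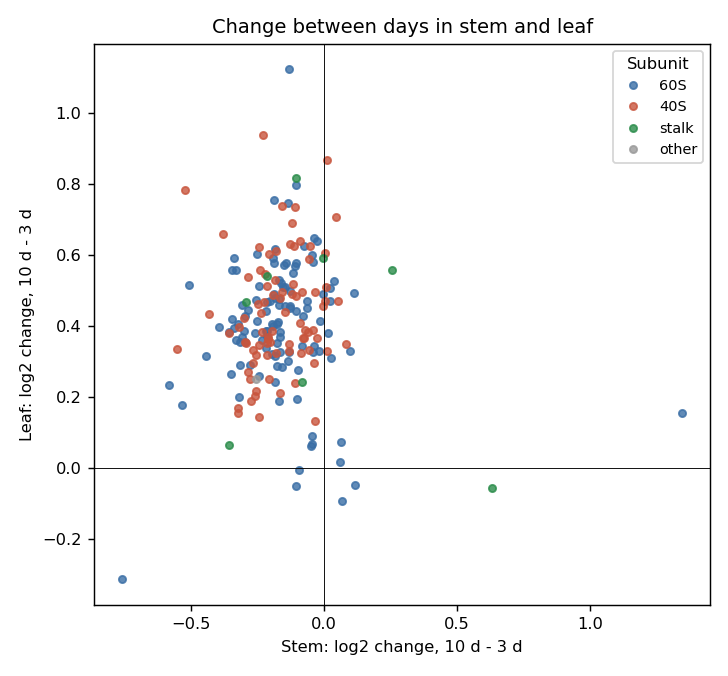
log2 change of TPM + 1 from 3 to 10 d in stem (horizontal) and leaf (vertical) for the 205 members in both tables, coloured by subunit. Most points, 180, lie in the upper left part, lower at 10 d in stem and higher at 10 d in leaf.

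As shares of all transcripts, most members had higher fitted levels in leaves of dd than of DD, in the fit over both days. At 3 d the summed levels of the genotypes overlapped, as given above. Of 208 members 90 (43.3%) were higher and 0 lower, against 4.7% of all genes higher and 0.738% lower, the median was +0.41 (all genes +0.03) and 196 members had a value above 0. They comprised 42 of 84 members of the 40S subunit, 47 of 115 of the 60S subunit and 1 of 8 stalk genes, RPLP2 Sobic.009G242300 (+0.50 ± 0.12). The number that passed depended on single libraries and on scaling, although the median did not: it was 25 with median-of-ratios scaling (median +0.36), and without 1 library it ran from 34 (without replicate 4 of dd controls at 10 d, or replicate 2 of dd 3 d after head removal) to 133 (without replicate 1 of dd 3 d after head removal). Without replicate 4 of the dd controls at 3 d it was 59. The median without 1 library lay between +0.35 and +0.45.

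RPS3A Sobic.002G364500, a 40S protein, stood at 33.4 to 101 TPM (median 63.8, n = 12) in DD leaves and at 44.2 to 211 TPM (median 127, n = 12) in dd leaves, a change of +0.79 ± 0.16 (adjusted p = 0.0036, limma). RPS21 Sobic.001G130301 stood at 20.0 to 61.2 TPM (median 39.6) in DD and at 30.7 to 101 TPM (median 65.5) in dd, a change of +0.70 ± 0.12 (adjusted p = 0.0013, limma). Both ranges overlapped between genotypes. RPS9 Sobic.002G385100 (+0.72 ± 0.16) and RPL30 Sobic.010G259900 (+0.71 ± 0.15) were the others among the 4 highest, and RPL13 Sobic.003G408100 (+0.31), RPS23 Sobic.001G036900 (+0.33), RPL18 Sobic.009G050300 (+0.33) and RPS3A Sobic.001G467300 (+0.33) were the lowest that passed. RPL30 Sobic.010G259900 and RPS23 Sobic.001G036900 were among 10 members higher in dd in both organs, whereas 4 members were lower in dd stems and higher in dd leaves. The shares of all genes in these overlaps were not counted. Of the marker lists, 2 of 47 heat shock genes were higher in dd leaves, 1 of 32 core histones was lower, and 0 light-reaction genes or lignin enzymes passed in limma. The shares of all genes called were 4.7% higher and 0.738% lower.

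RPL28 Sobic.003G272500, the member with the widest genotype change in stems, varied strongly between replicates in dd leaves. In DD leaves it stood at 26.2 to 58.4 TPM (median 38.7), and in dd leaves at 4.74 to 131 TPM (median 10.98). In dd leaves 10 d after head removal the replicates stood at 9.0, 131 and 13.7 TPM, and in dd controls at 10 d at 71.6, 8.7 and 50.7 TPM. The change of -1.29 ± 0.37 did not pass (adjusted p = 0.019, limma), although it was the lowest of all members.

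Head removal moved few members past the threshold in leaves. There 4 of 208 rose and 0 fell, against 4.32% of all genes higher and 7.05% lower, whereas 190 members had a value above 0 and the median was +0.20 (all genes -0.02). The 4 were RPS27 Sobic.004G145701 (+0.51 ± 0.13), RPLP2 Sobic.009G155600 (+0.38 ± 0.10), RPS12 Sobic.002G081600 (+0.33 ± 0.09) and RPL11 Sobic.002G027800 (+0.32 ± 0.08), the last a protein that binds 5S ribosomal RNA, and each had an adjusted p between 0.0091 and 0.0096 in limma. RPLP2 Sobic.009G155600 stood at 143 to 323 TPM (median 220) in controls and at 151 to 417 TPM (median 301) after head removal, with overlap. Without replicate 4 of the dd controls at 3 d, 42 members rose and 1 fell, with a median of +0.26. The share of all genes called in that fit was not counted. Without single other libraries the count of members that rose was 0 to 7. Within each genotype and day 0 of 208 members passed (limma; 0.622 and 0.159% of all genes higher and lower in DD at 3 d, 0.0061% higher in dd at 3 d, 0% at 10 d), where 12, 2, 6 and 37 had an unadjusted p under 0.05 in DD at 3 d, DD at 10 d, dd at 3 d and dd at 10 d. Medians were +0.22, +0.10, +0.17 and +0.34. Tests of treatment by day, treatment by genotype and genotype by day passed 0 members each (5, 2 and 2 with an unadjusted p under 0.05 in limma; 0% of all genes). Heat shock genes moved with head removal in leaves, with 15 of 47 higher and 1 lower and sums of 4084 to 9298 TPM in controls and 5523 to 12481 TPM after it, and 3 of 32 core histones were higher, while no light-reaction gene and no lignin enzyme passed. Their part in the leaf values of the members was not tested.

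Other genes of the ribosome and of translation were counted by lists of descriptions, to be read against the shares of all genes called. Ribosome biogenesis genes, which process ribosomal RNA and assemble subunits in the nucleolus, moved in the direction of the members with time: 46 of 99 fell and 0 rose in stems (median -0.22, all genes -0.09, 23.7% lower), and 53 of 99 rose and 0 fell in leaves (median +0.49, all genes +0.09, 17.8% higher). In dd leaves 29 of 99 were higher (median +0.45, against 4.7% of all genes). After head removal in stems 15 of 99 rose and 5 fell, and the count that rose was near the 14.4% of all genes. Of the subunits of RNA polymerases I and III, which transcribe ribosomal and transfer RNA, 26 of 34 rose in leaves with time (median +0.48), whereas in stems 8 of 35 fell and 2 rose, near or below the shares of all genes.

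Of the cytosolic translation factors 28 of 65 fell and 3 rose in stems with time (median -0.14, all genes -0.09), but their summed level was not lower at 10 d in most groups. Its mean went from 22365 to 22750 TPM in DD controls, from 22172 to 25740 TPM in DD after head removal, from 24036 to 24939 TPM in dd controls and from 25314 to 24934 TPM in dd after head removal. In leaves 18 of 66 rose with time (median +0.20). After head removal in stems 12 of 65 fell and 5 rose, both below the shares of all genes (23.5% lower and 14.4% higher).

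Ribosomal proteins of plastids and mitochondria rose in stems after head removal (52 of 114, 4 lower, median +0.18, against 14.4% of all genes higher) and were higher in dd stems (27 of 114, 0 lower, against 5.17%). In leaves 48 of 114 rose with time (17.8%), but their summed level was not higher at 10 d in most groups. Its mean went from 22908 to 21907 TPM in DD controls and from 23699 to 22087 TPM in dd controls. After head removal it went from 20326 to 23087 TPM in DD and from 22617 to 20175 TPM in dd, and the samples overlapped in each pair. Genes of TOR and S6 kinase, which promote ribosome production when nutrients suffice, had the opposite direction in stems after head removal: 11 of 17 fell and 1 rose (median -0.28, against 23.5% of all genes lower). In leaves 3 of 14 fell after head removal and 0 rose, against 7.05% of all genes lower and 4.32% higher. With time in stems these genes had the direction of the members: 7 of 17 fell and 2 rose (median -0.22, against 23.7% of all genes lower). With time in leaves 1 of 14 fell and 0 rose (median -0.13, against 3.69% of all genes lower). In dd leaves 0 of 14 passed in either direction in limma.

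Members of 1 table, and a minor RPL23A copy that varied widely, had low mean levels, although single samples reached up to 72.8 TPM. RPL40 Sobic.002G244600, which encodes a ubiquitin fusion, was listed in stems only, with 17.8, 0.88, 1.38 and 0.30 TPM in DD controls at 3 d and 32.9, 72.8, 1.45 and 2.59 TPM in dd controls at 10 d. Both groups thus held samples far apart, and its change with day of +1.78 ± 0.63 did not pass (adjusted p = 0.023, limma). RPL23A Sobic.010G052866, a minor copy of a protein at the exit of the 60S tunnel, ranged in the same way from 0.00 to 12.3 TPM in stems and from 0.82 to 33.7 TPM in leaves. RPS27A Sobic.001G208800, another ubiquitin fusion, RPL11 Sobic.003G057900 and RPL7A Sobic.006G019600 were listed in leaves only, with means of 2.77, 3.30 and 1.85 TPM.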

How the data were processed

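RNA-seq of 53 of the 64 labelled samples (29 stem, 24 leaf) was used, and the other 11 were not analysed here. The submitters' processing notes name FastQC, Trimmomatic, STAR and DESeq2, with no version. TPM values per gene and sample were deposited by the authors. TPM keeps no record of depth, so the replicates alone show the precision. The authors' deposited comparisons (fold changes and p-values), clusters and overlaps were not used.

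In each organ log2(TPM + 1) was fitted in R 4.3.3 with limma 3.58.1 (lmFit, eBayes with a variance trend) on all genes. The model was additive in treatment, genotype and day, and a model of 8 group means gave changes within groups and interactions. A gene was called at an adjusted p under 0.01. The script was tested on simulated data. Members and lists were chosen with earlier results of these data known. Named were the 4 highest and lowest members that passed per organ and factor, the 5 most abundant, all stalk genes, members that passed for an interaction, families split in direction, members of 1 table and the extreme stem to leaf ratios. Genes named beyond that (RPL28 in leaves, the most variable copies, the calls within groups) were chosen after their values were seen. Some members that the rule names are not reported here. Other settings tried were quantile and median-of-ratios scaling, pseudocounts of 3 and 0.1, only genes averaging 10 TPM or more, a fit without the trend, a replicate block, a 0.05 threshold, fits without single libraries, and KEGG-worded members only.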

Additional observations from a re-analysis of the deposited data

Results flagged for a closer look

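In stem groups of 4 samples, the gap from the highest or lowest sample to the nearest other was compared with the range of the group for 300 sets of values of summed levels and named members, and 16 stood apart. Chance sets apart about 1 in 20. Leaf groups, with 3 samples each, were not examined. None concerned a summed level.

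Among genes with wide swings, RPL40 Sobic.002G244600 had 17.8 TPM in DD control 3 d replicate 1, against 0.30 to 1.38 TPM in the other samples of the group. RPL23A Sobic.010G052866 had 8.21 TPM in DD head removal 3 d replicate 1 (others 0.57 to 1.52 TPM), 9.80 TPM in dd control 3 d replicate 2 (others 0.00 to 0.72 TPM) and 0.21 TPM in dd head removal 10 d replicate 2 (others 10.5 to 12.3 TPM). RPLP0 Sobic.009G229400 had 13.9 TPM in DD head removal 3 d replicate 2, against 6.60 to 7.80 TPM. RPL34 Sobic.003G086700 had 7.40 TPM in dd head removal 10 d replicate 4, against 3.73 to 4.31 TPM.

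In dd head removal 10 d replicate 1, RPS9 Sobic.002G385100 stood at 96.7 TPM (others 53.5 to 58.1 TPM) and RPS21 Sobic.001G130301 at 92.3 TPM (others 63.6 to 66.1 TPM). In dd control 3 d replicate 1, RPS9 Sobic.002G385100 stood at 42.6 TPM (others 56.0 to 58.2 TPM) and RPL44 Sobic.001G018800 at 714 TPM (others 851 to 855 TPM). RPS9 Sobic.002G385100 had 52.4 TPM in DD control 3 d replicate 4, against 45.1 to 46.3 TPM. In DD control 3 d replicate 3, RPL11 Sobic.002G027800 stood at 84.2 TPM (others 100.1 to 101.5 TPM) and RPS27 Sobic.004G145701 at 2.37 TPM (others 2.88 to 2.94 TPM). In dd control 10 d, RPS12 Sobic.002G081600 had 365 TPM in replicate 3 (others 292 to 299.8 TPM), RPL35A Sobic.009G225900 had 7.15 TPM in replicate 3 (others 7.92 to 8.04 TPM) and RPL23 Sobic.004G342400 had 576 TPM in replicate 4 (others 491 to 504 TPM).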

How the results depend on the processing

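The counts moved more than the medians. Shares of all genes called were counted for the main settings only, so the counts below have no such share beside them. Under median-of-ratios scaling 87 members rose and 4 fell after head removal in stems, 23 were higher and 5 lower in dd stems, 6 rose and 18 fell in stems with day, 17 passed in DD stems at 10 d and 2 in dd stems at 3 d, and in leaves 25 passed for genotype and 46 for day. Quantile normalization gave 4 lower after head removal in stems, 9 in DD stems at 10 d, 2 in dd stems at 3 d and 1 lower after head removal in leaves. Restricting to a mean of at least 10 TPM left 1 member higher with day in stems and 2 in dd stems at 3 d. Without the variance trend 1 member rose after head removal in leaves. At a threshold of 0.05 the counts were 11 lower after head removal, 34 higher and 31 lower by genotype, 48 in DD at 10 d, 6 in dd at 3 d and 29 in dd at 10 d in stems, and in leaves 37 higher and 2 lower after head removal, 164 higher and 2 lower by genotype and 2 in DD at 3 d. Without dd control 10 d replicates 3 and 4, 9 stem members were higher in dd, and 10, 2 and 18 passed in DD at 10 d, dd at 3 d and dd at 10 d. With replicates 2 and 3 of the DD leaves 3 d after head removal left out, 0 members rose after head removal in leaves (limma, where 86 had an unadjusted p under 0.05 with all samples). No value of a named gene that passed changed sign, and the signs of members not named were not compared. Among 126 named gene values and medians, 18 lost the threshold and 3 gained it under median-of-ratios scaling, 10 and 2 under quantile normalization, and none under a pseudocount of 0.1. The log2 ratios of summed levels for KEGG-worded members differed from those of all members by less than the spread of replicates.

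Leaving out 1 library gave 4 (without dd head removal 3 d replicate 3) to 8 members lower after head removal and 9 (without DD control 10 d replicate 2) to 21 (without DD head removal 10 d replicate 2) higher in dd in stems. Within groups it gave 0 to 1 in DD at 3 d, 0 to 10 in DD at 10 d, 1 to 2 in dd at 3 d and 1 to 11 in dd at 10 d. The count in DD at 10 d moved without DD control replicate 1 (8), 2 (0) or 3 (1) at 10 d, DD head removal replicate 1 (0), 2 (0) or 4 (8) at 10 d, dd control 3 d replicate 1 (10) or dd head removal 10 d replicate 1 (9). That in dd at 10 d moved without dd control replicate 1 (1), 2 (3) or 3 (11) or dd head removal replicate 2 (3) at 10 d. In leaves it gave 0 to 42 higher and 0 to 2 lower after head removal, 34 to 133 higher and 0 to 2 lower in dd, and 0 to 2 in DD at 3 d. The count of 4 higher after head removal in leaves moved by over 1.5 times without any library except DD control 10 d replicate 4, DD head removal replicate 4 at 3 or 10 d and dd head removal 10 d replicate 1. The count of 90 higher in dd leaves fell to 34 to 59 without any 1 of these. Among DD controls they were replicates 2 and 3 at 3 d and 2 at 10 d, and after head removal replicate 4 at 3 d and 1, 2 and 4 at 10 d. Among dd controls they were replicate 4 at both days, and after head removal replicates 2 and 3 at both days. The cause of these shifts was not tested.

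Nothing in the labels pairs samples of equal replicate number, and deviations from group means correlated no better between samples of the same number (mean r of -0.00 in 91 stem pairs and -0.03 in 60 leaf pairs) than of other numbers (0.00 and 0.01). With the replicate block 62 members rose and 6 fell after head removal in stems, 61 fell with day in stems, 1 rose after head removal in leaves, 124 were higher in dd leaves and 137 rose with day in leaves.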
